A study of Drosophila melanogaster with 12 samples.

Results

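The genes described here are 7 genes of purine synthesis and urate formation, Prat, Prat2, ade3, ade2, ade5, ras and ry, chosen by symbol. All 7 were present among the 10047 genes of the table. RNA came from the fat body, the larval organ of storage and intermediary metabolism, of female Drosophila melanogaster collected while wandering, in the third larval instar. Every group carried UAS-Dcr2, used to strengthen RNAi, and the driver r4-GAL4, which is active in the fat body. Fathers came from VDRC stock 60000 in the control groups, whose sample titles name vw1118, and from VDRC stock 37058, with UAS-EcR RNAi against the ecdysone receptor, in the groups labelled EcR RNAi (EcRi below). Each genotype was reared on 0.15 M sucrose (control diet) or 0.5 M sucrose (high sugar), which gives 4 groups of 3. The EcRi groups rest on 1 RNAi stock, and the labels do not say how many larvae a library holds or whether libraries came from separate crosses, so the tests measure the spread between these libraries, which may be technical in part.

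Purine nucleotides are built step by step on phosphoribosyl pyrophosphate (PRPP), with nitrogen from glutamine, aspartate and glycine and carbon from folate carriers. The pathway ends in inosine monophosphate (IMP), from which separate branches lead to AMP and GMP. Insects dispose of surplus purine by way of xanthine dehydrogenase, which makes uric acid, and the larval fat body is known for taking up and storing urate before metamorphosis.

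Values are the authors' normalised signal per gene, which has no absolute unit. The signal of all genes summed to between 8864826 and 15045575 per library, the highest being control 0.5 M replicate 1, which also lay farthest from its group mean over all genes (root mean square deviation 0.415 in log2 units, against 0.279 to 0.361 in the other libraries). EcR itself fell short of a call, at 1380.0 ± 173 in controls and 1132 ± 106 in EcRi (SD, n = 3 each) on 0.15 M, and 1454 ± 64.2 and 1414 ± 328 on 0.5 M (limma, Benjamini-Hochberg (BH) adjusted p = 0.386 and 0.847). Directions are therefore those of the libraries labelled EcRi. The gene w, which often marks transgenes, was higher in EcRi, at 763 ± 89.4 against 1281 ± 18.6 on 0.15 M and 1000.5 ± 336 against 1648 ± 83.1 on 0.5 M (limma, BH-adjusted p = 0.0132 and 0.007965). The 6 fat body marker genes held 19.45% to 25.49% of the signal in every library, and 1 of them, Fbp1, was called lower in EcRi on 0.5 M, at 740687 ± 260152 and 286130 ± 107517 (SD, n = 3 each; limma, BH-adjusted p = 0.00603). On 0.15 M Fbp1 had means of 582113 ± 78443 in controls and 299227 ± 58018 in EcRi, with ranges apart but no call. The summed signal of 6 salivary gland genes ran from 18723 to 21877 in controls and from 1284 to 3816 in EcRi on 0.15 M, and from 6399 to 28470 and from 1869 to 6896 on 0.5 M. All 6 of these genes were called lower in EcRi on 0.15 M, against 5.01% of all genes. On 0.5 M all 6 had lower means in EcRi and 3 were called lower, against 8.11% of all genes. Summed over 6 muscle genes, the signal ran from 14278 to 33772 in controls and from 5446 to 21336 in EcRi on 0.15 M. On 0.5 M it ran from 19499 to 31305 and from 29384 to 65562, and no muscle gene was called between genotypes on either diet. The part of salivary gland or muscle RNA in the results below was not tested. In bulk RNA, fewer cells of a type and less RNA per cell cannot be told apart.

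The 7 genes together took 0.448% to 0.594% of the signal in control libraries on 0.15 M and 0.187% to 0.253% in EcRi libraries on that diet. The shares on 0.5 M were 0.323% to 0.425% and 0.243% to 0.274%. The shares of the genotypes did not overlap on either diet. A summed share weighs genes by their signal, and ade3 and ade5 had the highest means over the 12 libraries, at 13854 and 10979.

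Levels of different genes were compared per kilobase of annotated exon in the Ensembl gene models of assembly BDGP6, which may not be the authors' annotation. The normalisation formula is not given, so whether the signal was already scaled by gene length is not known. The order below holds only if it was not. In controls on 0.15 M, ade3 and ade5 stood highest, at 4990 ± 614 and 4824 ± 684 signal per kilobase (SD, n = 3 each). Prat2 followed at 2136 ± 331, then ade2 at 1072 ± 181 and ras at 990 ± 152. The lowest were ry at 187 ± 8.88 and Prat at 50.8 ± 12.8. The first pair and the pair of ade2 and ras lay within their spreads, while the other neighbours in this order were farther apart than their SDs.

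**Figure D1:**
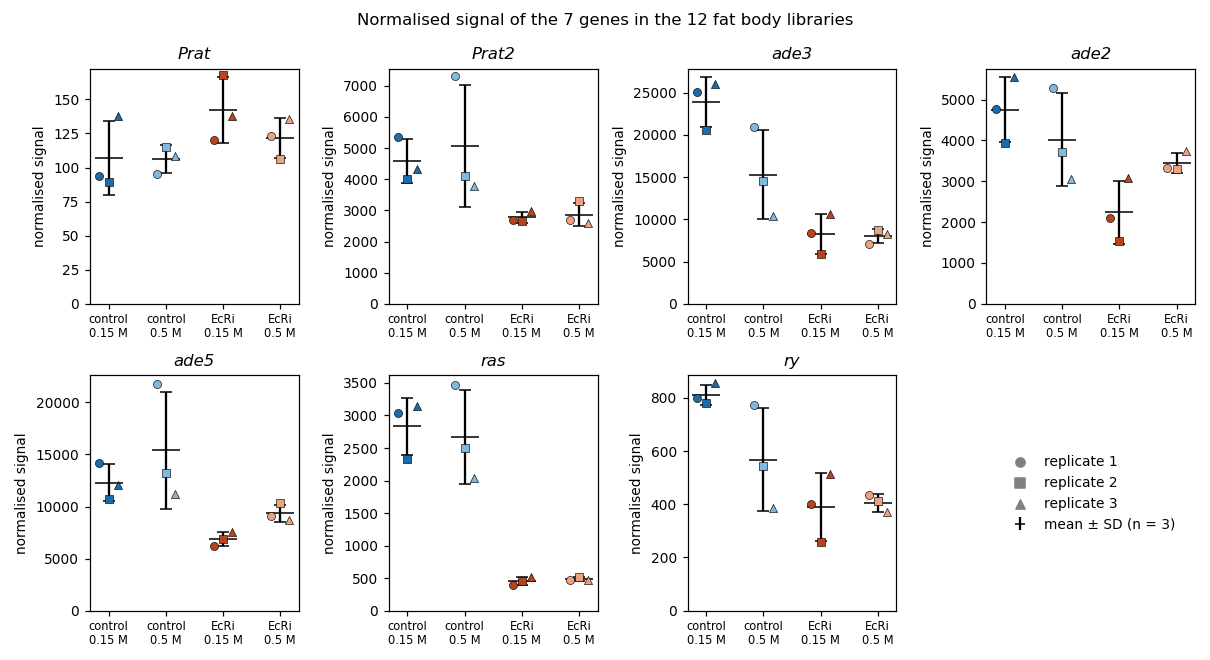
Normalised signal (linear axis from 0) of each gene in the 12 libraries, by genotype and sucrose concentration, with the mean and SD of 3 libraries as bars and 1 symbol per replicate number. For ras, the 6 EcRi libraries sit between 396 and 522 and the 6 control libraries between 2037 and 3462, while the groups of Prat overlap.

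On 0.15 M sucrose, 5 of the 7 genes were lower in EcRi than in controls and none was higher. The genes that fell were ras, ade3, ade2, ry and ade5. Prat2 was also below every control library but did not pass, and Prat was the only gene of the 7 with a higher mean in EcRi. A gene was called at a p under 0.05 in limma after BH adjustment over all genes, and 5.01% of all 10047 genes were called lower in this comparison. An unadjusted p under 0.05 was found for 7 of the 7, Prat on the higher side, and for 22.1% of all genes. The groups did not overlap, with EcRi lower, for 6 of the 7 genes, against 12.5% of all genes. The median change of the 7 genes was -1.11 (log2), and that of all genes was 0.04.

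On 0.5 M sucrose, 3 of the 7 genes were lower in EcRi, namely ras, ade3 and Prat2, and none was higher. Here 8.11% of all genes were called lower. An unadjusted p under 0.05 was found for 4 of the 7, against 30.5% of all genes. The groups lay apart for 4 of the 7 genes, which are these 3 and ade5, against 16.1% of all genes. The median change of the 7 was -0.66 (log2), with 0 for all genes to 2 decimals. Without EcRi 0.5 M replicate 1, or without EcRi 0.5 M replicate 3, only 1 of the 7 genes, ras, was called on this diet.

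**Figure D2:**
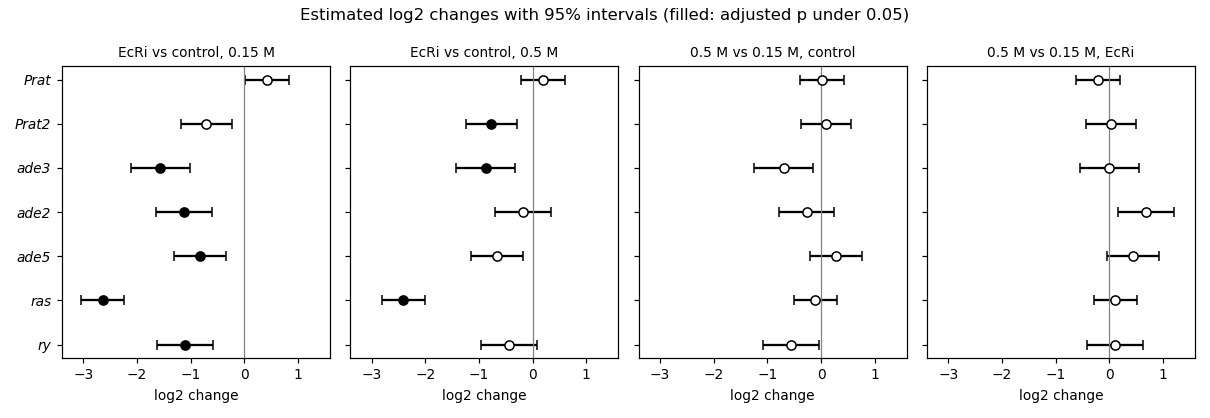
Estimated changes of the 7 genes (log2 of signal + 1, horizontal axis) with 95% intervals from limma, in 4 comparisons; filled circles passed an adjusted p of 0.05 over all genes. The estimate for ras is -2.64 on 0.15 M and -2.41 on 0.5 M, farther from 0 than those of the other 6 genes, and no circle is filled in the 2 diet comparisons.

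The entry step is catalysed by amidophosphoribosyltransferase, which commits PRPP to purine synthesis and is encoded in the fly by the paralogues Prat and Prat2. Prat2 had signals of 5366, 4006 and 4344 in the 3 control libraries on 0.15 M and of 2704, 2655 and 2986 in EcRi. On 0.5 M the controls had 7312, 4095 and 3795 and the EcRi libraries 2679, 3287 and 2605. Every EcRi library thus lay below every control library on both diets. The change was -0.71 ± 0.22 (log2, SE) on 0.15 M, and -0.77 ± 0.22 with high sugar (limma, BH-adjusted p = 0.0522 and 0.0228). The second call was lost without EcRi 0.5 M replicate 1 or replicate 3, and when only the groups compared were fitted (limma, BH-adjusted p = 0.0838, 0.0818 and 0.0883). The first value passed in 8 of 23 settings, counting the design used here.

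Prat was the low-level paralogue. Its signals were 94.0, 89.0 and 138 in controls and 120, 168 and 138 in EcRi on 0.15 M. The 0.5 M libraries had 95.1, 115 and 109 in controls and 123, 106 and 136 in EcRi. The groups overlapped on both diets. The differences were 0.42 with a 95% interval from 0.01 to 0.83, and 0.19 with an interval from -0.21 to 0.60 (limma, BH-adjusted p = 0.208 and 0.546). The ratio of Prat2 to Prat signal within a library, which is a ratio of signals and not per length, was 44.5 ± 12.8 in controls and 20.0 ± 3.66 in EcRi on 0.15 M (SD, n = 3 each), and 49.2 ± 24.0 and 24.0 ± 6.16 on 0.5 M. The ranges of this ratio did not overlap between genotypes, at 31.5 to 57.0 and 15.8 to 22.5 on 0.15 M and 34.9 to 76.9 and 19.2 to 30.9 on 0.5 M. Prat shares 124 bases of exon with Taf7 on the opposite strand, and the strand setting of the counting was not given in the sources used here, so reads of the 2 genes there cannot be told apart. Taf7 had means of 33.3 and 55.5 on 0.15 M and of 48.8 and 43.7 on 0.5 M in controls and EcRi. Likewise CG31643, at means of 44.5 to 52.3, shares 103 bases of exon with ade2.

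The middle steps belong to ade3, which encodes an enzyme with several activities early in the pathway (named Gart in current annotation), ade2, which encodes the glutamine-using enzyme that makes formylglycinamidine ribotide (now Pfas), and ade5, which encodes an enzyme that carboxylates the imidazole ring and adds aspartate (now Paics). For ade3 the controls on 0.15 M had 25055, 20505 and 25993, and the EcRi libraries 8334, 5860 and 10587. On 0.5 M the controls had 20902, 14474 and 10416 and the EcRi libraries 7108, 8713 and 8298. The ranges lay apart on both diets, but control 0.5 M replicate 3 fell below EcRi 0.15 M replicate 3. The gene fell by 1.56 on the log2 scale on 0.15 M and by 0.87 on 0.5 M, each with an SE of 0.26 (limma, BH-adjusted p = 0.000486 and 0.0259). The first call was kept without any single library. The second was lost without control 0.5 M replicate 1, where the change was -0.62, and without EcRi 0.5 M replicate 1, 2 or 3 (limma, BH-adjusted p = 0.0665, 0.106, 0.0501 and 0.0596). It was also lost with library weights, at -0.45, and when only the groups compared were fitted (limma, BH-adjusted p = 0.0649 and 0.07). This second call held in 17 of 23 settings.

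The table also lists Pcp, a pupal cuticle protein gene that lies within an intron of ade3 on the opposite strand in the BDGP6 annotation. Its mean signal was 1322 in controls and 514 in EcRi on 0.15 M, a change of -1.36, and 1122 and 903 on 0.5 M, a change of -0.36 (limma, BH-adjusted p = 0.000239 and 0.26). Pcp and ade3 shared no exon base in the annotation. CG43322, which shares 115 bases of exon with ade3, had a mean signal between 7.80 and 13.7 in the 4 groups.

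For ade2 the signals on 0.15 M were 4771, 3943 and 5545 in controls and 2095, 1547 and 3075 in EcRi, without overlap. High sugar gave 5277, 3721 and 3047 in controls and 3325, 3301 and 3738 in EcRi, so the groups overlapped. The change was -1.13 ± 0.24 (log2, SE) on 0.15 M (limma, BH-adjusted p = 0.00478) and was kept without any single library. On 0.5 M the difference was -0.18 with a 95% interval from -0.70 to 0.34 (limma, BH-adjusted p = 0.671), and its sign was positive, at 0.034, without control 0.5 M replicate 1.

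For ade5 the controls on 0.15 M had 14161, 10699 and 12044 and the EcRi libraries 6201, 6863 and 7587. Controls on 0.5 M had 21798, 13176 and 11196 and the EcRi libraries 9063, 10297 and 8661. EcRi lay below control on both diets in every library. The change was -0.83 ± 0.23 (log2, SE) on 0.15 M, and -0.66 ± 0.23 with high sugar (limma, BH-adjusted p = 0.0251 and 0.0535). The value with high sugar passed in 5 of 23 settings, among them upper quartile scaling, quantile normalisation and voom (limma, BH-adjusted p = 0.0176, 0.00419 and 0.0195) and the fits without control 0.5 M replicate 2 or 3. The call on 0.15 M was lost without control replicate 1 or 3 or without EcRi replicate 1 or 2 of that diet (limma, BH-adjusted p = 0.109, 0.0667, 0.116 and 0.0793).

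The enzyme encoded by ras, IMP dehydrogenase, takes IMP into the GMP branch and is regarded as the controlling step of guanine nucleotide synthesis. Its signal was 3033, 2335 and 3140 in the controls on 0.15 M and 396, 451 and 512 in EcRi. On 0.5 M the controls had 3462, 2502 and 2037 and the EcRi libraries 471, 522 and 472. The means of the genotypes differed 6.26-fold on 0.15 M and 5.46-fold on 0.5 M, and the lowest control library stood well above the highest EcRi library. The changes were -2.64 ± 0.19 and -2.41 ± 0.19 (log2, SE; limma, BH-adjusted p = 1.51e-07 and 2.41e-07). Of all 10047 genes, 30 had a lower change than ras on 0.15 M and 55 on 0.5 M. Over all alternative settings the call was kept, with changes from -2.77 to -2.52 on 0.15 M and from -2.59 to -2.11 on 0.5 M.

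The neighbour gene of ras on the opposite strand, CG32676 (now stx), shares 160 bases of exon with it, and Rph shares 21 at a mean signal of 12.8 to 23.0. The mean signal of CG32676 was 817 in controls and 611 in EcRi on 0.15 M and 744 and 853 on 0.5 M (limma, BH-adjusted p = 0.0533 and 0.338). The part of shared reads in the level of ras was not tested. A lncRNA on the same strand overlaps ras by 154 bases of exon and is not listed in the table.

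The last of the 7, ry, encodes xanthine dehydrogenase, which oxidises hypoxanthine and xanthine to uric acid. The controls on 0.15 M had signals of 800, 780 and 854, and the EcRi libraries 400, 258 and 512. Controls on 0.5 M had 772, 545 and 387 and the EcRi libraries 433, 411 and 369, so the ranges met on this diet. The change was -1.11 ± 0.24 (log2, SE) on 0.15 M (limma, BH-adjusted p = 0.00682), and the call was kept without any single library. On 0.5 M the difference was -0.44 with a 95% interval from -0.96 to 0.09 (limma, BH-adjusted p = 0.249).

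Urate oxidase, encoded by Uro, breaks uric acid down and is known as an enzyme of the Malpighian tubule. Its mean signal was 596 ± 285 in controls and 877 ± 322 in EcRi on 0.15 M and 708 ± 140 and 827 ± 190 on 0.5 M (SD, n = 3 each), with no call (limma, BH-adjusted p = 0.448 and 0.77). The tubule list had 3 of 6 genes in the table, and the other 2, tio and salt, had mean signals between 29.6 and 74.2. The summed tubule signal ran from 397 to 1024 in controls and from 598 to 1223 in EcRi on 0.15 M. Most of this sum was Uro. On 0.5 M it ran from 728 to 1008 and from 744 to 1130, and salt was called lower in EcRi, at 64.3 ± 14.9 and 29.6 ± 14.5 (SD, n = 3 each; limma, BH-adjusted p = 0.0468). The part of tubule RNA in the level of ry was not tested.

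High sugar alone moved none of the 7 genes past the test. In controls 0 of 7 were called in limma, against 1.72% of all genes, 2 of 7 had an unadjusted p under 0.05, against 14.4%, and voom called 1, ade3. The differences with unadjusted p under 0.05 were those of ade3, from 23851 ± 2935 to 15264 ± 5287 (SD, n = 3 each), at -0.69 ± 0.26 (log2, SE), and of ry, from 811 ± 38.5 to 568 ± 193, at -0.57 ± 0.24 (limma, BH-adjusted p = 0.238 and 0.309). The ranges of ry lay apart, with 7.76% of all genes lower without overlap, and those of ade3 met between 20505 and 20902. Control 0.5 M replicate 1 was the highest library of its group for 6 of the 7 genes, all but Prat.

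Within that control group the coefficients of variation were 38.5% for Prat2, 36.6% for ade5, 34.6% for ade3, 34.0% for ry, 28.5% for ade2 and 27.3% for ras, and 9.47% for Prat. In EcRi on the same diet they were 13.1%, 9.13%, 10.4%, 8.03%, 7.11% and 6.04%, and 12.1% for Prat, the only gene of the 7 with the wider spread in EcRi. For ade5, Prat2 and ade2, the mean of control 0.5 M replicates 2 and 3 was 12186, 3945 and 3384, against group means of 15390, 5067 and 4015.

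In EcRi, 0 of 7 genes were called between the diets in limma, where 24.4% of all genes were called, 1 of 7 had an unadjusted p under 0.05, against 37.8%, and voom called 1. The ranges of ade2 and ade5 lay apart with 0.5 M higher, 2 of 7 genes against 24.5% of all genes. The means of ade2 were 2239 ± 774 and 3455 ± 246 (SD, n = 3 each), a difference of 0.68 ± 0.24 (log2, SE), which missed the threshold (limma, BH-adjusted p = 0.0528). Leaving out EcRi 0.15 M replicate 3 gave 0.94 and a call (limma, BH-adjusted p = 0.015). The difference for ade5 was 0.44 ± 0.23, with means of 6884 and 9340 (limma, BH-adjusted p = 0.171). In the same comparison 5 of 6 muscle genes were called higher, from a summed signal of 5446 to 21336 to one of 29384 to 65562. Also called higher were 1 of 6 salivary gland and 1 of 6 midgut genes. Called lower were 2 of 6 hemocyte genes and 2 of 3 gonad genes, the latter of low signal. All genes were called higher at 14.0% and lower at 10.4%. The part of RNA of other tissues in these values was not tested. The other 5 of the 7 genes had intervals that reached at most 0.63 on the log2 scale in either direction.

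Whether the diet change differed between genotypes was tested as an interaction. None of the 7 passed in limma, against 3.92% of all genes, 1 of 7, ade2, had an unadjusted p under 0.05, against 21.5%, and voom called 1. The interaction of ade2 was 0.95 ± 0.35 (log2, SE; limma, BH-adjusted p = 0.128), and 1.16 without control 0.5 M replicate 1 (limma, BH-adjusted p = 0.0494). Thus ade2 was lower in EcRi on 0.15 M and not called on 0.5 M, without a call for the difference between these effects. The same holds for ry and ade5, whose interactions were 0.67 ± 0.34 and 0.17 ± 0.32 (limma, BH-adjusted p = 0.277 and 0.817). The interval of the ras interaction ran from -0.34 to 0.79.

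In 6 of the 7 genes, all but Prat, both control groups had higher means than both EcRi groups, and for ras, ade5 and Prat2 every control library of either diet lay above every EcRi library. The shares of all genes with these orders across both diets were not counted, so these counts are a description. Within a diet, 12.5% of all genes on 0.15 M and 16.1% on 0.5 M were lower in EcRi without overlap. The control group with the higher mean was that on 0.15 M for ade2, ade3, ras and ry and that on 0.5 M for ade5 and Prat2, and the control groups overlapped for all of these but ry. Between the EcRi groups, ade2 and ade5 lay apart and the other genes overlapped.

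Profiles over the 12 libraries were compared by the root mean square distance between log2 values, each gene centred on its own mean. The closest pair among the 7 was ade5 and Prat2, at 0.17 log2 units, with 5 of 5262 other genes nearer to ade5 than Prat2 was. The genes ry and ade3 followed at 0.26, with 2 other genes nearer to ade3. Prat and ras were the farthest pair, at 1.45. The libraries and their scaling are shared by all genes, so this is a description of likeness.

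**Figure D3:**
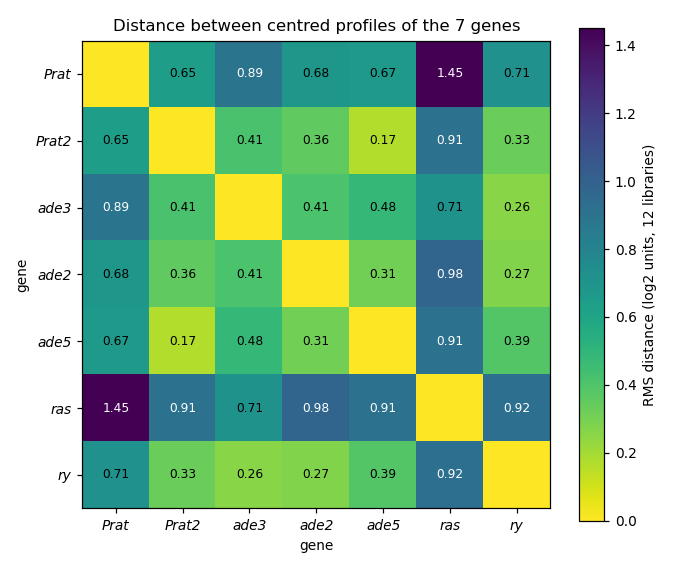
Root mean square distance between the centred log2 profiles of the 7 genes over 12 libraries (colour and printed value, log2 units; both axes list the genes). The ade5 and Prat2 pair has the smallest value, 0.17, and the row of ras holds values from 0.71 to 1.45.

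Outside the 7, the nearest profile to ade2 was that of CG3011 (now Shmt), which encodes the serine hydroxymethyltransferase that makes glycine and folate-bound carbon, at 0.19 log2 units, followed by Fit1 at 0.21. Nearest to ras were the maltase gene Mal-A5 at 0.24 and CG2277 (now Nt5a) at 0.25. Mal-A5 fell from a mean of 8407 to 1821 on 0.15 M and from 10790 to 1763 on 0.5 M. CG2277 fell from 1297 to 270 and from 1647 to 266. The nearest to ade3 were Irp-1A, an iron regulatory protein gene, and Mical, to ade5 CG12272 and Spn42Dc, and to Prat2 CG42370 and CG8100. Nearest to ry were CG11883 and CG9005, and to Prat betaTub56D and bl. The search covered 5262 genes with a mean signal of at least 100.

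Of 32 other measured genes around the pathway, from 5 lists, 5 rose and 6 fell in EcRi on 0.15 M, and 6 rose and 5 fell on 0.5 M. Their median change was 0.12 and 0.11 (log2), beside -1.11 and -0.66 for the 7 genes. The lists differed among themselves, and the folate and glutamine list had a median of -1.20 on 0.15 M, close to that of the 7 genes, and of 0.04 on 0.5 M. All genes were called higher at 6.19% and lower at 5.01% on 0.15 M, and higher at 10.9% and lower at 8.11% on 0.5 M. The same shares stand beside the counts of each list below.

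**Figure D4:**
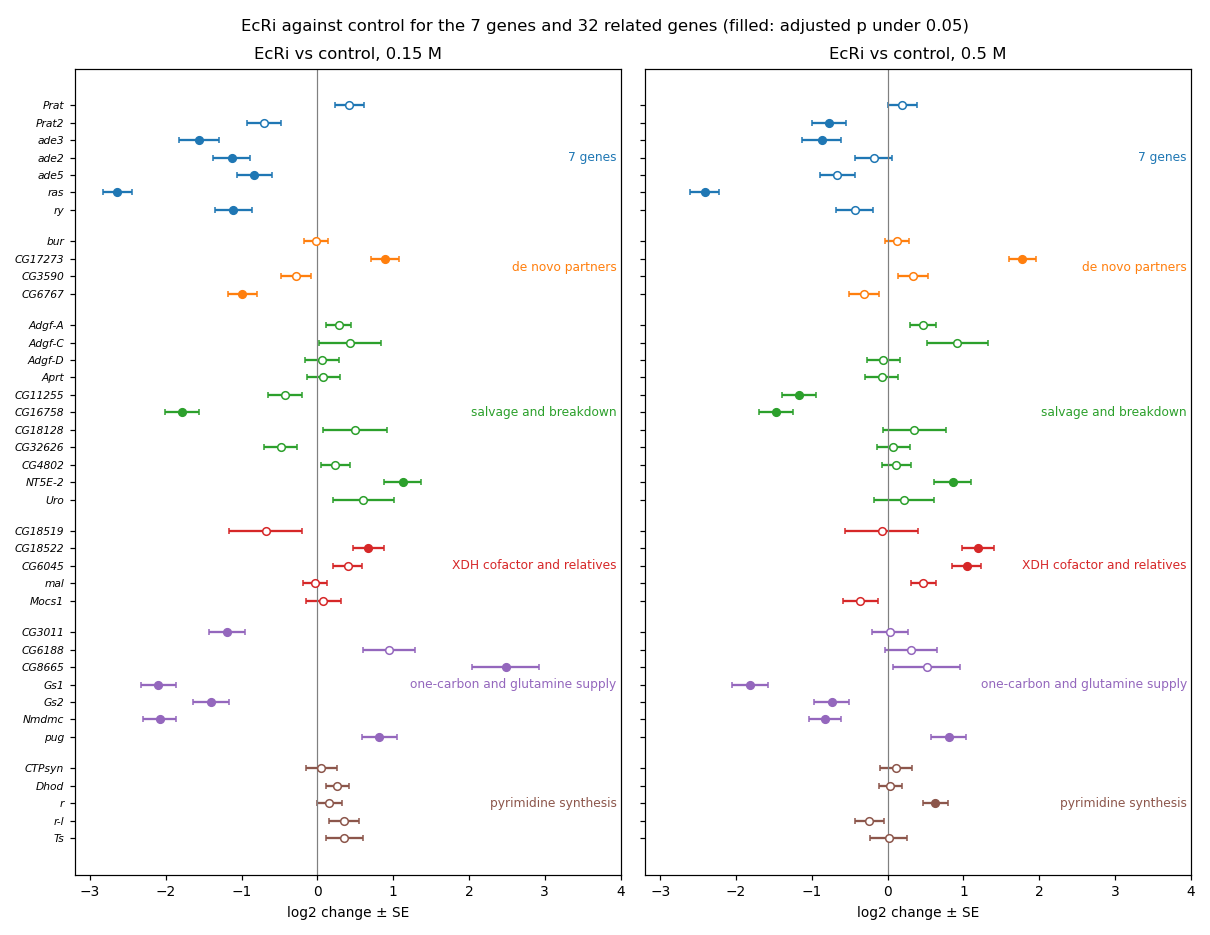
Changes in EcRi against control (log2 ± SE, horizontal axis) for the 7 genes and the 32 related genes, in list order, on 0.15 M (left) and 0.5 M (right); filled circles passed an adjusted p of 0.05. In the de novo list CG17273 lies at 0.89 and 1.78, to the right of 0, where ras lies at -2.64 and -2.41.

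The other steps of the pathway had 4 of 5 listed genes in the table, of which 1 rose and 1 fell on 0.15 M and 1 rose on 0.5 M. CG6767 (now Prps), which makes PRPP, went from 4457 ± 678 to 2229 ± 137 on 0.15 M (SD, n = 3 each), a fall of 0.99 on the log2 scale, and from 4031 ± 942 to 3208 ± 429 on 0.5 M (limma, BH-adjusted p = 0.00201 and 0.297). CG17273 (now Adss), adenylosuccinate synthetase of the AMP branch, rose from 610 ± 40.8 to 1135 ± 87.5 on 0.15 M and from 717 ± 94.4 to 2496 ± 598 on 0.5 M (SD, n = 3 each; limma, BH-adjusted p = 0.00252 and 2.53e-06). It also rose with sugar in EcRi, by 1.11 ± 0.18 (limma, BH-adjusted p = 0.000544). CG17273 is 1 gene of the AMP branch and does not stand for the whole branch. CG3590 (now Adsl), which acts on both the common pathway and the AMP branch, differed by -0.28 ± 0.20 and 0.33 ± 0.20 (limma, BH-adjusted p = 0.481 and 0.28). The GMP synthetase gene bur, which acts after ras, differed by -0.02 ± 0.16 and 0.13 ± 0.16 (limma, BH-adjusted p = 0.971 and 0.658), with 95% intervals that leave out a change as large as that of ras.

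Among 11 measured genes of salvage and breakdown, 1 rose and 1 fell on 0.15 M, against 6.19% and 5.01% of all genes. On 0.5 M 1 rose and 2 fell, against 10.9% and 8.11%. CG16758, annotated as a purine nucleoside phosphorylase, fell from 4800 ± 1241 to 1362 ± 87.7 on 0.15 M and from 3947 ± 1328 to 1383 ± 201 on 0.5 M (SD, n = 3 each; limma, BH-adjusted p = 3.83e-05 and 0.000203). NT5E-2, a nucleotidase gene of low signal, rose by 1.13 ± 0.24 and 0.86 ± 0.24 (limma, BH-adjusted p = 0.00491 and 0.0207). CG11255 (now Adk2), an adenosine kinase gene, fell by 1.17 on the log2 scale on 0.5 M (limma, BH-adjusted p = 0.00125), and on 0.15 M its change was -0.43 ± 0.22.

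Of 5 measured genes for its molybdenum cofactor or for aldehyde oxidases, which resemble xanthine dehydrogenase, 1 rose on 0.15 M and 2 on 0.5 M, and none fell. CG18522, an aldehyde oxidase gene, rose by 0.67 ± 0.21 and 1.20 ± 0.21, and CG6045 (now AOX3) changed by 0.40 ± 0.19 and 1.04 ± 0.19 (log2, SE; limma, BH-adjusted p = 0.0465, 0.000531, 0.232 and 0.000855). The call of CG18522 on 0.15 M held in 12 of 23 settings and was lost with voom (limma, BH-adjusted p = 0.0657) and in 8 of 12 fits without 1 library, at 0.50 without EcRi 0.15 M replicate 3. The cofactor gene mal, whose product adds sulfur to the cofactor that ry needs, differed by -0.03 ± 0.16 and 0.47 ± 0.16 (limma, BH-adjusted p = 0.943 and 0.0521).

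Supply of folate-bound carbon and glutamine held 7 measured genes, of which 4 fell and 2 rose on 0.15 M and 3 fell and 1 rose on 0.5 M. Gs1, a glutamine synthetase gene, fell from 9244 ± 2740 to 2106 ± 281 on 0.15 M and from 12103 ± 3158 to 3381 ± 467 on 0.5 M (SD, n = 3 each; limma, BH-adjusted p = 1.07e-05 and 3.33e-05). Its paralogue Gs2 fell by 1.40 and 0.74 on the log2 scale, the latter without a call in 8 of 23 settings. Shmt (CG3011) fell from 10176 ± 2352 to 4401 ± 747 on 0.15 M, while on 0.5 M its means were 7029 ± 2212 and 7013 ± 825 (limma, BH-adjusted p = 0.00237 and 0.939). Nmdmc, a mitochondrial folate enzyme gene, fell from 425 ± 115 to 96.9 ± 0.389 on 0.15 M and from 206 ± 52.6 to 114 ± 18.8 on 0.5 M (limma, BH-adjusted p = 5.12e-06 and 0.0123). On 0.5 M the calls of Nmdmc, NT5E-2 and pug held in 20, 20 and 19 of 23 settings. The genes that rose on 0.15 M were CG8665, by 2.48 ± 0.44, and pug, another folate enzyme gene, by 0.82 ± 0.23, both named here after their values were seen.

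Pyrimidine synthesis served as the neighbouring nucleotide pathway. Of its 5 measured genes none was called on 0.15 M in limma, and on 0.5 M 1 rose, r, which encodes the enzyme of the early steps, by 0.63 ± 0.16 (log2, SE; limma, BH-adjusted p = 0.0117). The median change of this list was 0.26 on 0.15 M and 0.04 on 0.5 M.

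Between the diets, 1 of the 32 related genes was called in controls, Nmdmc, which fell, where 0.169% of all genes were called lower. In EcRi 6 rose and none fell, with 14.0% of all genes called higher. The genes that rose with sugar in EcRi were CG17273, r, CG6045, Gs1, Shmt (CG3011) and CG4802 (now Mtap), by 1.11, 0.96, 0.78, 0.68, 0.68 and 0.56 on the log2 scale. The calls of CG17273 and r held in all 23 settings and that of CG6045 in 22. Those of Gs1, CG3011 and CG4802 held in 13, 13 and 12, and were lost with upper quartile scaling (limma, BH-adjusted p = 0.118, 0.123 and 0.147) and with quantile normalisation.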

How the data were processed

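Per the labels' protocols, fat bodies were dissected, RNA was depleted of ribosomal RNA with RiboZero, and bar-coded libraries were read on an Illumina instrument. The deposited table holds normalised signal values, 1 for each of 10047 genes in each of 12 libraries. Per the submitters' processing notes, the tools were Bowtie 0.12.7, TopHat 1.3.2, edgeR (no version) and Cufflinks 1.1.0, with no roles stated. The genome build, annotation, strand setting and normalisation formula are not given in the sources used here, and the values are neither whole counts nor 0, so the depth in reads was not recovered here. No coordinates or sequences are given.

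Signals were transformed as log2(value + 1), which understates changes of low genes. All 10047 genes had a mean of at least 1. limma 3.58.1 in R 4.3.3 fitted 4 group means to 12 libraries with trended, robust empirical Bayes and Benjamini-Hochberg (BH) adjustment over all genes. In simulated data for EcRi against control on 0.15 M, with 10047 genes and 200 changed, 84.1% of 2-fold and 29.3% of 1.5-fold changes were recovered and 4.55% of calls were false. The changed genes were drawn without those of low mean signal, and no shifts between whole libraries were simulated. Recovery for low genes and for the other comparisons was therefore not measured.

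The 7 genes and the lists were chosen with earlier results of these data known. Named genes are the 7, up to 4 called genes per list and comparison by smallest p, Uro, EcR, w, and the 2 nearest profiles of each of the 7. Genes that overlap the 7 were added for their shared reads, and bur, mal, CG3590, CG8665, pug on 0.15 M and the markers Fbp1, tio and salt were named after their values were seen. List names were matched by current symbol or by the symbol in the deposited table. For CG18522 and for CTPsyn of the pyrimidine list, the CG number points to other gene identifiers in current annotation, and the symbol in the deposited table was used. 1 gene of the lists is not reported here and was left out of their counts.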

Additional observations from a re-analysis of the deposited data

Results flagged for a closer look

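1 result, for a gene outside the 7, differed between the genotypes by a test of the difference itself. It is 1 of the 32 related genes, and 3.92% of all genes were called in the interaction, so the count is near that share. Nmdmc, a mitochondrial folate enzyme gene, had an interaction of genotype label and diet of 1.25 ± 0.31 (log2, SE; limma, BH-adjusted p = 0.0329). With sugar it fell by 1.04 on the log2 scale in controls, from 425 ± 115 to 206 ± 52.6, and had means of 96.9 ± 0.389 and 114 ± 18.8 in EcRi (SD, n = 3 each). All 3 libraries of control 0.5 M lay below all 3 of control 0.15 M. The interaction passed in 10 of 22 settings. It was lost with upper quartile scaling, an untrended fit and voom (limma, BH-adjusted p = 0.055, 0.0858 and 0.0682), and passed in 4 of the 12 fits that left out 1 library, with values from 1.057 to 1.498. Groups of 3 libraries are too small for the test for single outlying samples.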

How the results depend on the processing

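The number of the 7 genes called on 0.15 M between genotypes stayed within 4 to 6 in every setting tried, against 5 in the design used. On 0.5 M it was 3 in the design used, 1 when only the groups compared were fitted, and 1 to 4 when single libraries were left out. The 0.5 M count moved in other settings too. There ade5 gained a call with upper quartile scaling, quantile normalisation and voom, and ade3 lost its call with library weights. Between diets in controls it was 0, and 1 with quantile normalisation, 2 with library weights and 1 with voom. Between diets in EcRi it was 0, and 1 with library weights, 1 with voom, 2 with only the groups compared and 0 to 2 without single libraries, where 2 came without control 0.5 M replicate 1. The interaction count was 0, and 3 with library weights, 1 with voom and 0 to 1 without single libraries, where 1 came without control 0.5 M replicate 1. The estimate of library weights stopped before it converged. The causes of these differences were not tested.

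Signs turned only for differences that had not been called. For ade2 on 0.5 M between genotypes the log2 value was 0.108 with library weights and -0.362 to 0.034 without single libraries. Between diets in controls, Prat had -0.074 with upper quartile scaling, -0.28 with voom and -0.104 to 0.209 without single libraries. Prat2 had -0.191 with quantile normalisation, -0.15 with library weights, -0.148 with voom and -0.203 to 0.27 without single libraries. For ade5 the values were -0.035 with quantile normalisation and -0.009 to 0.472 without single libraries, and for ras -0.317 to 0.066. Between diets in EcRi, Prat2, ras and ry had -0.176, -0.094 and -0.104 with upper quartile scaling and -0.282, -0.164 and -0.127 with quantile normalisation. Without single libraries Prat2 ran from -0.072 to 0.095, ry from -0.165 to 0.328 and ade3 from -0.23 to 0.197, and voom gave ade3 0.004. In the interaction, Prat2 had 0.203 with library weights, 0.19 with voom and -0.238 to 0.235 without single libraries, Prat had 0.066 with voom, and ade5 ran from -0.031 to 0.45 without single libraries.

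Scaling moved the median of all genes by more than 0.1 in places. With upper quartile scaling it was -0.226 between diets in EcRi and -0.165 in the interaction, and with voom 0.195 between genotypes on 0.5 M, -0.293 between diets in controls and 0.24 in the interaction. Higher and lower calls over all genes were 1100 and 815 between genotypes on 0.5 M and 913 and 1043 with upper quartile scaling. Between diets in EcRi they were 1406 and 1045, and 773 and 1792 with that scaling. Library weights raised the calls over all genes from 1915 to 3628 on 0.5 M, from 173 to 968 between diets in controls and from 394 to 1546 in the interaction. Between diets in EcRi they raised them from 2451 to 2973. Quantile normalisation called 185 genes between diets in controls. Calls with voom were 97 between diets in controls, 1297 between diets in EcRi and 256 in the interaction.

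With the replicate block, 5, 3, 0, 0 and 0 of the 7 genes were called in the 5 comparisons, the same counts as without it, and calls over all genes in the interaction went from 394 to 260. Among related genes the block ended the calls of CG18522 on 0.15 M, of Gs1 and CG3011 between diets in EcRi and of the Nmdmc interaction (limma, BH-adjusted p = 0.0568, 0.0572, 0.0604 and 0.0527). Correlations of the deviations of same-numbered libraries from their group means lay between -0.196 and 0.165. For libraries of other numbers they lay between -0.17 and 0.215. With groups of 3, such values do not show whether same-numbered libraries were handled together. Depth in reads was not recovered here, so no floor for low signals is given.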
